A study of Mus musculus with 4 samples.

Results

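Cardiac developmental transcription factors were examined in the ventricle of mice with and without Trpc6, through 10 genes chosen by name, Gata4, Gata6, Nkx2-5, Tbx5, Tbx20, Hand1, Hand2, Srf, Irx4 and Hey2, out of 19321 genes with a named probe on the array. Every probe whose platform symbol was one of these names was taken, which gave 11 probes, with 2 for Tbx20 and 1 for each of the others. RNA of ventricular muscle from male 129SV mice was read on 4 arrays in 1 colour, 2 of wild-type mice and 2 of mice with a genetic deletion of Trpc6, a cation channel that passes calcium. The labels give no age, no construct of the deleted allele and no treatment, and do not say whether the samples of a group came from separate animals, so each p-value rests on a spread between samples that may be a technical one.

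These factors form the core of the gene network that builds the heart. The zinc finger proteins GATA4 and GATA6, the homeodomain protein NKX2-5, the T-box proteins TBX5 and TBX20 and the MADS-box protein SRF bind next to each other on the promoters of contractile and natriuretic peptide genes and recruit one another. HAND1 and HAND2 are basic helix-loop-helix factors known for the left and right ventricle of the embryo, IRX4 is a homeodomain factor of ventricular muscle, and HEY2 is a repressor downstream of Notch that is known for the compact layer of the ventricle. In the adult heart several of them stay on and are known to act in the response to load, where GATA4 is a partner of the calcium-regulated factor NFAT.

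Of the 10 factors, 9 were above background on all 4 arrays and Hand1 was not. None of the 9 passed the limma test over all 15955 genes, in which 0 genes, or 0% of those tested, had an adjusted p under 0.05. Gata6 had the smallest p of the 9 and lay 1.12-fold higher in the knockout, and Hand2 lay 1.10-fold higher. Gata4, Nkx2-5, Srf and Hey2 had knockout means within 0.05 log2 units of wild type, and the 2 Tbx20 probes differed from wild type in opposite directions.

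The detection limit of an array was the 95th percentile of its blank and negative control spots. It was 80.8 and 91.5 units of spot intensity in wild type, against 85.5 and 83.3 units in the knockout, and 76.3% to 83.2% of all gene probes lay above it. The median gene probe read 95.5 to 106 units, so that a factor reading near 100 units is only just above background. Arrays correlated with each other at 0.993 to 0.997 over log2 values of all tested genes. Trpc6 cannot serve as a check of the labels here, since its probe was above the limit on 0 of 4 arrays. All 10 ventricular markers were above background on all 4 arrays, among them Myl2, the ventricular light chain, and Irx4, itself 1 of the factors. So were 8 of 9 tested atrial markers, 8 of 8 fibroblast markers and 8 of 8 endothelial markers. Detection therefore does not tell ventricular muscle from other tissue here.

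**Figure D1:**
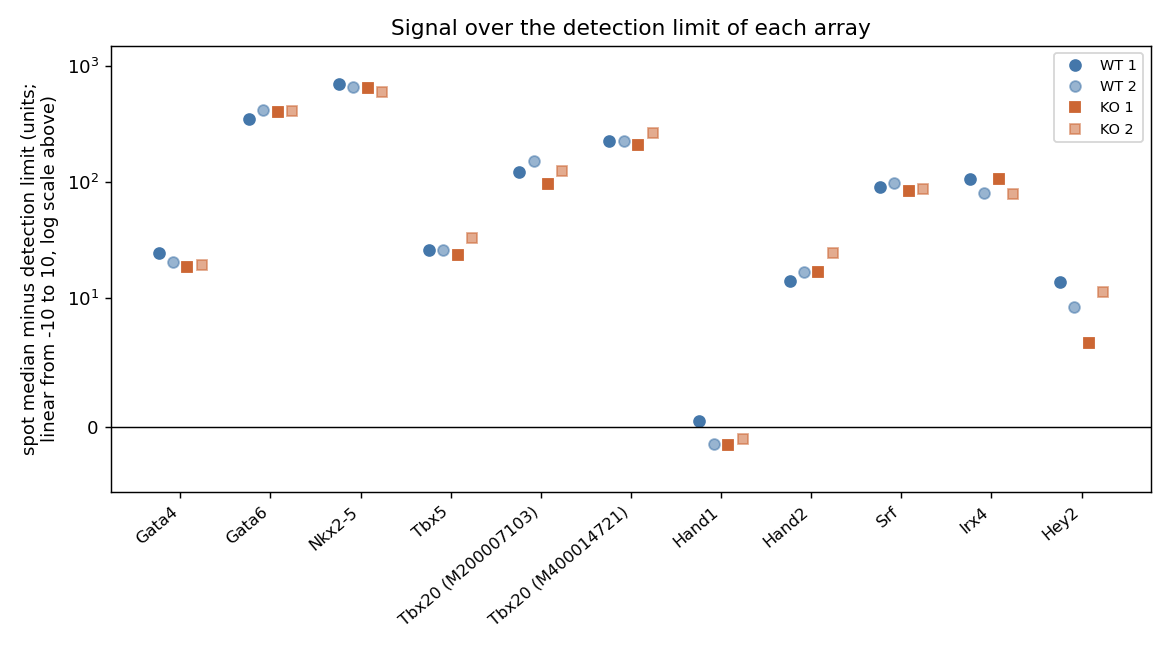
Spot median minus the detection limit of the same array for each of the 11 probes, on an axis that is linear up to 10 units on either side of 0 and logarithmic above. Circles are wild-type arrays and squares knockout arrays. Hand1 lies at the limit on every array, Hey2, Hand2, Gata4 and Tbx5 lie within 35 units of it, and the other probes lie further above. Heights of different probes are not comparable as RNA levels.

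Hand1, the bHLH factor known for the embryonic left ventricle, read 81.3 and 90.1 units in wild type, against 84.1 and 82.4 units in the knockout. It passed the limit on the first wild-type array by 0.51 units and on no other. The authors' deposited table lists 1 value for it, 2.8 units on that array. No difference is given for Hand1, and it takes no part in the counts that follow.

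Values below are log2 intensities after normexp background correction with an offset of 50 and quantile normalization, in the order wild type 1, wild type 2, knockout 1 and knockout 2. A difference is the knockout mean minus the wild-type mean, given ± its limma standard error with n = 2 arrays per group. The offset draws differences of dim probes towards 0, so the authors' deposited values, in units above a constant, are set beside them. In bulk muscle, fewer cells of a type and less RNA per cell cannot be told apart for any gene described here.

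Among the GATA factors, Gata6 (probe M400000110) was at 8.69 and 8.79 in wild type and at 8.88 and 8.92 in the knockout. Both knockout arrays were above both wild-type arrays, and the gap between the nearest arrays of the groups was smaller than the distance between the wild-type arrays. The difference was 0.16 ± 0.05, with a 95% interval from 0.02 to 0.30, an unadjusted limma p of 0.0355 and an adjusted p of 0.727. In the authors' deposited table Gata6 read 351 and 339 units in wild type and 384 and 424 units in the knockout, a ratio of means of 1.17. The difference stayed above 0 without any 1 of the arrays, from 0.10 to 0.21, and its unadjusted p was 0.112 without the first wild-type array and 0.154 without the second knockout array. With normexp on the local background it was 0.08, at an unadjusted limma p of 0.221, and with local background subtracted 0.09, at 0.721. The unadjusted p was also above 0.05 with an offset of 16, with median or 75th percentile scaling, with a trend in the variance prior and in the authors' table, from 0.0504 to 0.301.

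Gata4, the GATA factor best known as an effector of hypertrophic signals, showed no such order. Its probe (M300003025) was at 6.32 and 6.24 in wild type and at 6.26 and 6.23 in the knockout. The first wild-type array was highest and the other 3 lay within 0.03 of each other. The difference was -0.03 ± 0.05, with an interval from -0.16 to 0.09 and an unadjusted limma p of 0.526. The authors' deposited values were 26.7 and 19.6 units in wild type and 20.3 and 22 units in the knockout.

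Nkx2-5 (probe M400000234), the homeodomain factor that marks heart muscle precursors, was at 9.61 and 9.39 in wild type and at 9.50 and 9.40 in the knockout. The knockout arrays lay between the wild-type arrays. The difference was -0.05 ± 0.09, with an interval from -0.28 to 0.19 and an unadjusted limma p of 0.617, and the authors' deposited means were 618 and 617 units. Its local background was 24.1% and 20.0% of the spot signal on the wild-type arrays and 50.4% and 57.1% on the knockout arrays. With local background subtracted the difference was -0.82, at an unadjusted limma p of 0.0417.

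Of the T-box factors, Tbx5 (probe M400000286), known for atrial and left ventricular patterning and for conduction, was at 6.34 and 6.33 in wild type and at 6.35 and 6.48 in the knockout. The groups did not overlap, but the first knockout array was above the wild-type arrays by about 0.01 and the second knockout array carried the difference. It was 0.08 ± 0.06, with an interval from -0.07 to 0.23 and an unadjusted limma p of 0.227, and was 0.02 without the second knockout array. In the authors' deposited table Tbx5 read 28 and 24 units in wild type and 24.8 and 36 units in the knockout, where the groups overlap.

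Tbx20, needed for the adult heart muscle cell to keep its contractile and calcium handling genes, had 2 probes. The brighter one (M400014721) was at 8.15 and 8.07 in wild type and at 8.10 and 8.38 in the knockout, a difference of 0.13 ± 0.10 with an interval from -0.14 to 0.40 and an unadjusted limma p of 0.263. The second (M200007103) was at 7.48 and 7.63 in wild type and at 7.32 and 7.52 in the knockout, a difference of -0.13 ± 0.09 in a limma fit over 16999 probes, with an unadjusted p of 0.211. On both probes the second knockout array was above the first, and the groups overlapped. The probes disagreed in the sign of the genotype difference, their mean differed by -0.0011, and no direction is given for Tbx20. Without the second knockout array the brighter probe differed by -0.0061.

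Hand2 (probe M300011407), the bHLH factor of the embryonic right ventricle, was at 6.11 and 6.17 in wild type and at 6.22 and 6.34 in the knockout. Both knockout arrays were above both wild-type arrays. The difference was 0.14 ± 0.06, with an interval from -0.01 to 0.29, an unadjusted limma p of 0.0625 and an adjusted p of 0.755. Hand2 shows what the offset does to a dim probe. With an offset of 16 in place of 50 its difference was 0.25, at an unadjusted limma p of 0.0374, and in the authors' deposited table it read 16.3 and 16.7 units in wild type and 18.5 and 27.5 units in the knockout, a ratio of means of 1.39. Its sign held under all 12 changes of setting and without any 1 of the arrays. The size did not, since it was 0.03 with normexp on the local background, at an unadjusted limma p of 0.524, and 0.08 without the second knockout array, at 0.269.

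Irx4 (probe M200008640), the ventricular homeodomain factor, was at 7.33 and 7.03 in wild type and at 7.41 and 7.10 in the knockout. The arrays of a group lay 0.30 apart in wild type and 0.31 apart in the knockout, which is more than the difference between the groups. That difference was 0.07 ± 0.15, with the widest interval of the 9 factors, from -0.32 to 0.47, and an unadjusted limma p of 0.650. It was -0.08 without the second wild-type array and also -0.08 without the first knockout array. Its local background was 83.8% and 79.5% of the spot signal in wild type against 58.0% and 73.2% in the knockout, and with local background subtracted the difference was 1.01, at an unadjusted limma p of 0.0286.

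Hey2 (probe M200008543), the Notch-dependent repressor, was at 6.11 and 6.03 in wild type and at 5.99 and 6.07 in the knockout. The groups overlapped, and the difference of -0.04 ± 0.05 had an interval from -0.18 to 0.10 and an unadjusted limma p of 0.506. The authors' deposited values were 15.9 and 10.5 units in wild type and 8.7 and 13.7 units in the knockout. Its sign turned without the first wild-type array, at 0.0026, and without the first knockout array, at 0.0011.

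Srf (probe M400000235), which drives immediate early and muscle actin genes, had the narrowest interval of the 9 factors. It was at 7.198 and 7.203 in wild type and at 7.183 and 7.196 in the knockout. The groups did not overlap, with a gap of less than 0.01. The difference was -0.01 ± 0.04, with an interval from -0.11 to 0.09, or 0.927-fold to 1.06-fold, and an unadjusted limma p of 0.775. The authors' deposited values were 92.4 and 82.9 units in wild type and 81.9 and 92.7 units in the knockout. There the groups overlap, with means of 87.7 and 87.3 units. With normexp on the local background the difference was -0.18 ± 0.10, and with local background subtracted -0.29 ± 0.28.

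**Figure D2:**
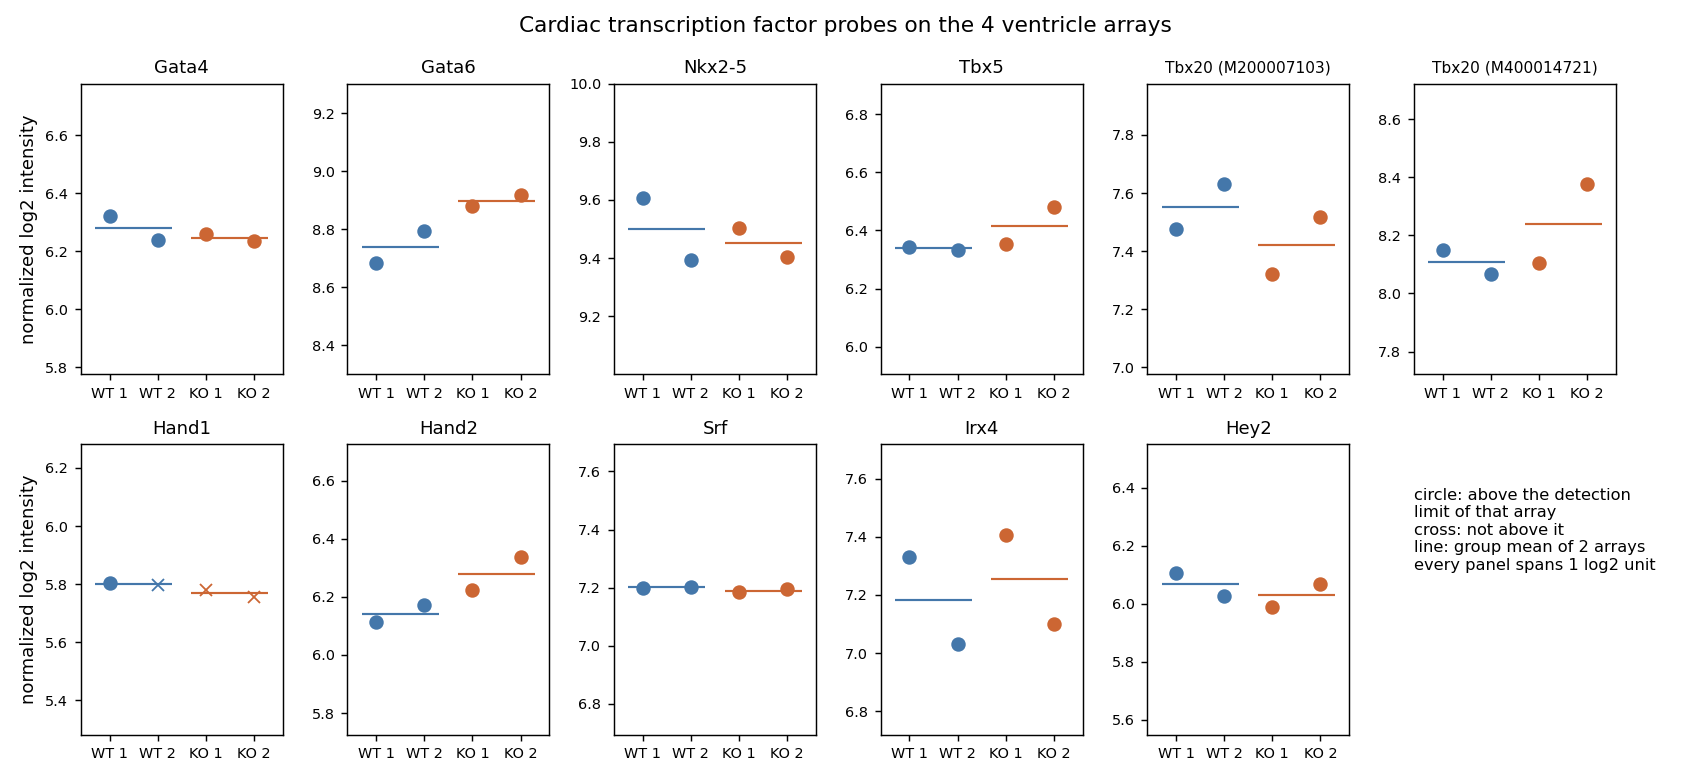
Normalized log2 intensity of each probe on the 4 arrays, wild type in blue and knockout in orange, with group means as lines. Every panel spans 1 log2 unit. Gata6 and Hand2 have both knockout arrays above both wild-type arrays, Irx4 has a wide gap inside each group, and the Tbx20 probes differ in opposite directions between genotypes.

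Read as a group, with Tbx20 entered by its brighter probe, 5 of the 9 factors were higher and 4 were lower in the knockout. Their median difference was 0.072, against 51.1% of all tested genes higher and a median of 0.0017. With the mean of the probes of each gene, 4 factors were higher and 5 lower, with a median of -0.0011. All tested genes then stood at 51.2% higher and a median of 0.0018. At an unadjusted limma p under 0.05 there was 1 factor, Gata6, or 11.1% of the 9, where 6.74% of all tested genes met the same mark, 3.67% on the higher and 3.08% on the lower side. Groups did not overlap for 4 of the 9, Gata6, Tbx5 and Hand2 upward and Srf downward, or 44.4%, against 36.8% of all tested genes, 19.4% upward and 17.4% downward. Both shares are near the background and are no result about these factors. The number with an unadjusted p under 0.05 ranged from 0 to 2 over the alternatives, and which factor it was changed with the setting.

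**Figure D3:**
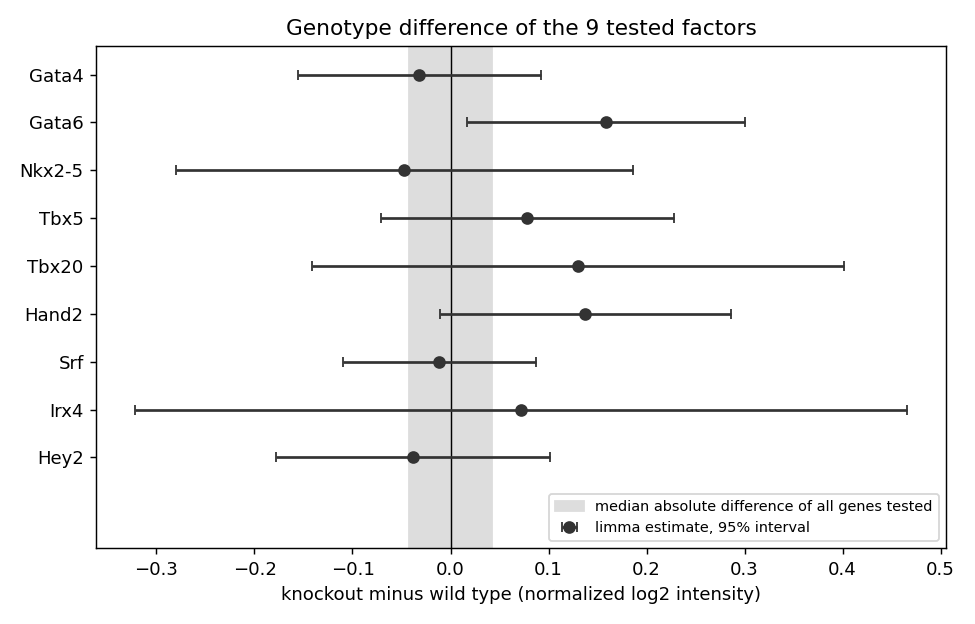
Knockout minus wild type in normalized log2 intensity for the 9 tested factors, with 95% intervals from limma. The grey band marks the median absolute difference of all tested genes, 0.043, on both sides of 0. Only the interval of Gata6 lies wholly on 1 side of 0, and this is before adjustment over all genes.

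**Figure D4:**
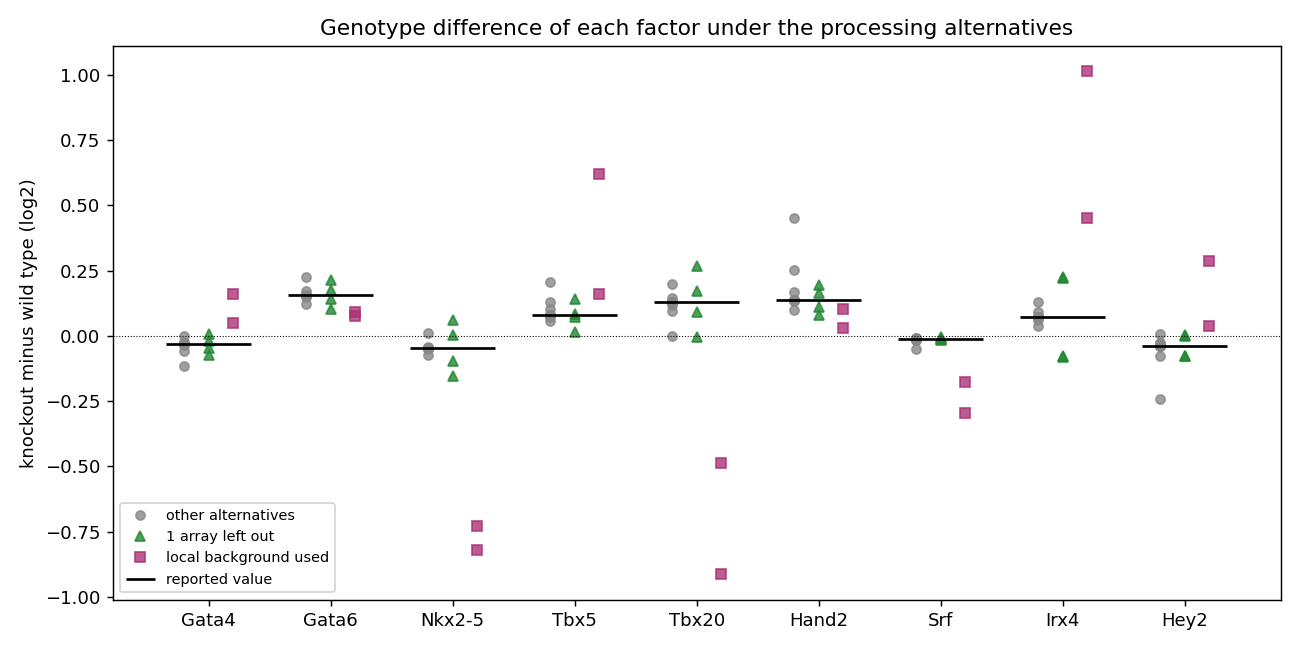
Knockout minus wild type on the log2 scale for each factor under the reported setting (black line), with 1 array left out (triangles), with the local background used (squares) and under the other alternatives (circles). Gata6, Tbx5 and Hand2 stay above 0 and Srf stays below 0 throughout, while the use of the local background moves Nkx2-5, Tbx20 and Irx4 furthest.

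Sequence before the gene starts was searched for the letters that the factors themselves are known to bind. RefSeq's table of gene starts on GRCm38.p6 held 6 of the 10 factors. Motifs were searched on both strands in the 250 bases before the start, namely GATAA for GATA factors, AAGTG for NKX2-5, AGGTGT for T-box factors, CANNTG for bHLH factors (the E-box) and the CArG box of SRF. Of the 6 windows, GATAA was in 1, the CArG box in 1, AAGTG in 2, AGGTGT in 0 and CANNTG in 3, where 22.6%, 1.47%, 40.7%, 11.8% and 66.2% of all 32851 windows held them. A match is a description of letters, not of binding. The Srf window is shown because it holds 2 CArG boxes, the element SRF itself binds. The 30 bases printed run from -82 to -53 at chr17:46556215-46556244 (minus strand), with the boxes in capitals. The Srf window, like those of Nkx2-5 and Irx4, overlaps RefSeq's span of its own gene. Distances are counted from the start used here, which need not be the outermost. The Hand2 window (chr8:57320733-57320982, plus strand) is shown because Hand2 was 1 of the 3 factors with higher knockout values without overlap, with GATAA on either strand, AAGTG and CANNTG in capitals, where the AAGTG match lies inside an E-box.

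Srf CArG boxes: CCATATAAGGagcggcctcgCCATAAAAGG

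Hand2 window: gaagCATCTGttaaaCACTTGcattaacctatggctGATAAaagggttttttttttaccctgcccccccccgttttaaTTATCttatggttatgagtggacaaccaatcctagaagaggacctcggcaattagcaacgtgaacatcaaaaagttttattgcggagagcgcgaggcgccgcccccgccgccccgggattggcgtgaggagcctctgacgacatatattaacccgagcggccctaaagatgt

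Partners and relatives of the 10 factors were read through a list of 34 genes, of which 30 were tested, 33 having a named probe and Isl1, Tbx1 and Shox2 lying too near background. None passed over all genes. In the knockout 18 were higher and 12 lower, with a median difference of 0.022. Unadjusted limma p-values under 0.05 were found for 3, or 10%, and groups without overlap for 14, or 46.7%, against 6.74% and 36.8% of all tested genes.

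The leading genes of this list were the FOG proteins, zinc finger cofactors that bind the amino-terminal finger of GATA factors and modulate them. Zfpm2, the FOG gene needed with Gata4 for coronary and valve development, was at 6.91 and 6.97 in wild type and at 6.74 and 6.69 in the knockout, a difference of -0.23 ± 0.04 with an unadjusted limma p of 0.00479. Zfpm1, known best from blood formation, was at 6.35 and 6.36 in wild type and at 6.18 and 6.18 in the knockout, a difference of -0.18 ± 0.04 with an unadjusted limma p of 0.00661. Both genes thus had every knockout array below every wild-type array, with replicates closer to each other than to the other group, yet their adjusted p was 0.727. The authors' deposited means were 65.2 and 48.3 units for Zfpm2, a ratio of 0.740, and 26.8 and 17.6 units for Zfpm1, a ratio of 0.658. In the authors' table the unadjusted limma p was 0.0642 for Zfpm2 and 0.0207 for Zfpm1. Zfpm1 was dim, with spot medians of 107 and 119 units in wild type and 100 and 99.8 units in the knockout. The sign of both differences held under all 12 changes of setting and without any 1 array. The size was smaller where the local background was used. For Zfpm2 and Zfpm1 the differences were -0.07 and -0.03 with normexp on the local background, at unadjusted limma p-values of 0.714 and 0.625, and -0.17 and -0.12 with local background subtracted, at 0.736 and 0.668.

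Myocd, the coactivator myocardin that SRF needs for muscle genes, lay on the other side. It was at 6.28 and 6.24 in wild type and at 6.40 and 6.38 in the knockout. The difference was 0.13 ± 0.04 with an unadjusted limma p of 0.0238 and an adjusted p of 0.727. With normexp on the local background it was 0.07, at an unadjusted limma p of 0.326, and with local background subtracted 0.29, at 0.359. In the authors' table the unadjusted limma p was 0.119. Tbx2, a T-box repressor of chamber genes in the embryo, was at 6.14 and 6.12 in wild type and at 6.22 and 6.21 in the knockout, a difference of 0.09 ± 0.04 with an unadjusted limma p of 0.0695. Both were dim, and the authors' deposited means in wild type and knockout were 22 and 28.5 units for Myocd and 15.8 and 19.5 units for Tbx2.

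Genes that these factors or their relatives are known to regulate were tested in 19 of 23 cases, Gja5 and Hcn4 being too near background. Of the 19, 9 were higher and 10 lower, and the median was -0.015. An unadjusted limma p under 0.05 was found for 3, or 15.8%, and groups without overlap for 4, or 21.1%, against 6.74% and 36.8% of all tested genes. Nppa, which encodes atrial natriuretic peptide, was at 11.68 and 11.64 in wild type and at 11.99 and 12.61 in the knockout, a difference of 0.64 ± 0.21 with an unadjusted limma p of 0.0324. The second knockout array was 0.61 above the first, and without it the difference was 0.33. With normexp on the local background the Nppa difference was 2.18 ± 1.76, at an unadjusted limma p of 0.296. With local background subtracted it was 4.68 ± 3.03, at 0.184. Under the other settings that used all 4 arrays its unadjusted limma p stayed under 0.05. Kcnd2 is the transient outward potassium channel gene that IRX5, a relative of IRX4, represses in mouse. It was at 7.165 and 7.105 in wild type and at 7.001 and 6.972 in the knockout. The difference was -0.15 ± 0.04 with an unadjusted limma p of 0.0215. That p was 0.299 in the authors' table, 0.0655 with a trend in the variance prior and 0.00807 with normexp on the local background.

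Among contractile targets, Myl3, a ventricular light chain, differed by 0.23 ± 0.08 with an unadjusted limma p of 0.0434, but its spot medians were 29633 and 32579 units in wild type and 31006 and 29091 units in the knockout and overlapped, and its ratio in the authors' deposited table was 1.07. With median scaling its difference was 0.0042, at an unadjusted limma p of 0.944, and with 75th percentile scaling 0.04, at 0.568. Actc1, cardiac alpha-actin, was at 15.51 on 3 arrays and at 15.25 on the second wild-type array. Quantile normalization gives the brightest probes of each array the same few values, so these mark ranks, and its spot medians were 45943 and 43450 units in wild type and 47693 and 39158 units in the knockout. Nppb, Myh6 and Myh7, for B-type natriuretic peptide and the alpha and beta heavy chains of myosin, differed by -0.23 ± 0.17, 0.06 ± 0.07 and 0.01 ± 0.26, with groups that overlapped. Fgf12 differed by 0.08 ± 0.04 and was above background on 2 of 4 arrays, both of the knockout. Its spot medians were 78.7 and 87.6 units in wild type and 86.2 and 84.1 units in the knockout. Fgf12 thus entered the test only through the group where it was higher. It is among the 4 targets without overlap, and its place there is no support for a difference.

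Nppa is the textbook target of this network, and its sequence is shown for the motifs it holds. In its 250 bases (chr4:148000472-148000721, plus strand, RefSeq, GRCm38.p6) there were 2 GATAA, 2 AAGTG, 1 AGGTGT and 2 CANNTG matches on either strand, with 1 AAGTG inside an E-box, all in capitals. The window before Actc1 (chr2:114052876-114053125, minus strand) is set beside it for its CArG box, at -47, also in capitals.

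Nppa window: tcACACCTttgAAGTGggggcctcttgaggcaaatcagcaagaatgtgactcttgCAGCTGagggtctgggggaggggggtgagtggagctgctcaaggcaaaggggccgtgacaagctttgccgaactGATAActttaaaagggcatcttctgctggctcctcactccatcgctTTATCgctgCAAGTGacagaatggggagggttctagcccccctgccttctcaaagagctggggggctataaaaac

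Actc1 window: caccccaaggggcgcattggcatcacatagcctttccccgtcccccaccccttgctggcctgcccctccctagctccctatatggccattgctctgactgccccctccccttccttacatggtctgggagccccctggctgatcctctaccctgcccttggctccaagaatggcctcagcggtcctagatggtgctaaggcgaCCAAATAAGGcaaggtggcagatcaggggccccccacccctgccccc

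Targets of SRF, which itself differed by -0.01, were tested in 20 of 21 cases, with 12 higher and 8 lower and a median of 0.046. The list holds Srf itself, counted among the 20 and the 8. At an unadjusted limma p under 0.05 there was 1 gene, Acta1, or 5% of the 20, and groups did not overlap for 5, or 25%, against 6.74% and 36.8% of all tested genes. This skeletal alpha-actin gene was at 11.28 and 10.93 in wild type and at 12.09 and 11.54 in the knockout, a difference of 0.71 ± 0.22 with an unadjusted limma p of 0.0272 and an adjusted p of 0.727. Without the first knockout array the difference was 0.44. Acta2, smooth muscle alpha-actin, was at 10.38 and 10.25 in wild type and at 10.86 and 10.40 in the knockout, a difference of 0.31 ± 0.17. Its second knockout array was only just above the first wild-type array, and the first knockout array carried the difference. The spot medians of Acta2 were 1334 and 1332 units in wild type and 1879 and 1321 units in the knockout, and overlapped. Calponin (Cnn1), of smooth muscle, and the immediate early factor Egr2 differed by -0.12 ± 0.07 and -0.07 ± 0.04.

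Upstream signals were read through BMP and SMAD genes, which induce Nkx2-5 and Gata4 in the embryo, and through Notch genes, which induce Hey2. Of 18 tested BMP and SMAD genes 8 were higher and 10 lower, with a median of -0.023. None had an unadjusted limma p under 0.05, a mark met by 6.74% of all tested genes, and groups did not overlap for 4, or 22.2%, against 36.8%. Bmp10, a ligand of trabecular and atrial muscle, differed by -0.12 ± 0.06, the receptor gene Acvr1 by 0.10 ± 0.06, the effector Smad5 by 0.06 ± 0.04 and the inhibitor Smad7 by -0.10 ± 0.07. Of 15 tested Notch genes 4 were higher and 11 lower, with a median of -0.048, and again none had an unadjusted limma p under 0.05. Adam10, the protease that cleaves Notch, was at 7.62 and 7.49 in wild type and at 7.39 and 7.42 in the knockout, a difference of -0.15 ± 0.06 with an unadjusted limma p of 0.0557. The coactivator Maml1 differed by -0.10 ± 0.05, the target Hes1 by -0.16 ± 0.11 and the receptor gene Notch4 by 0.16 ± 0.10, and groups did not overlap for 8 of the 15 genes, or 53.3%, against 36.8% of all tested genes.

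**Figure D5:**
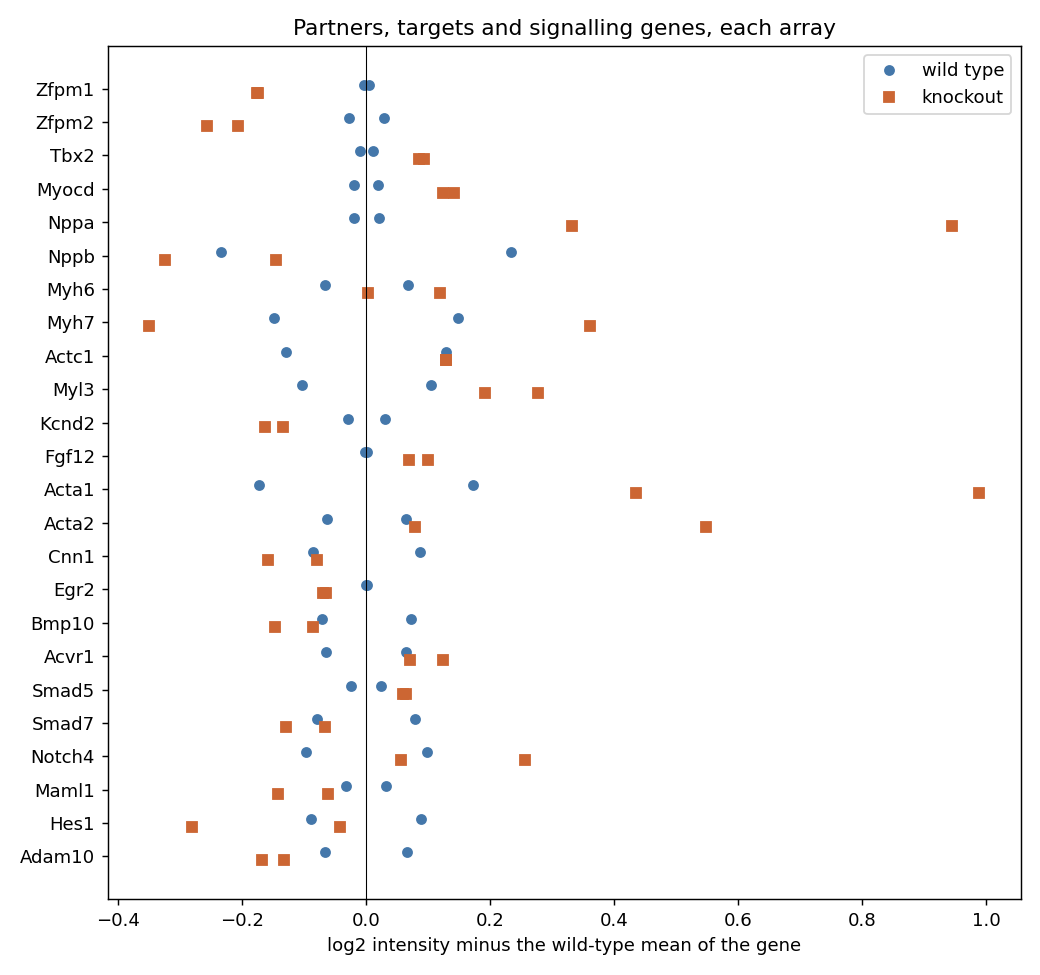
Normalized log2 intensity on each array minus the wild-type mean of the same gene, for the listed partners, targets and signalling genes with the smallest p and the fixed targets, wild type as circles and knockout as squares. Zfpm1 and Zfpm2 have both knockout arrays below both wild-type arrays, Nppa and Acta1 have knockout arrays that lie far apart, and Myh7 overlaps.

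Marker lists of the cell types that ventricular muscle can hold were summed on each array on the linear scale, over 61 tested of 66 listed genes, and the sums are given as log2. Of the 8 sums, 4 were higher without overlap in the knockout, 1 was lower and 3 overlapped. Of all tested genes taken singly, 36.8% had no overlap, 19.4% higher and 17.4% lower, and no such share was worked out for sums. The count is therefore no result about cell types. The erythroid sum was 10.06 and 11.41 in wild type against 11.65 and 11.74 in the knockout, low on the first wild-type array. The epicardial sum was 8.57 and 8.61 against 8.63 and 8.64, with 5 of 6 genes higher. Its probes all lay near background. Their spot medians ran from 81.3 units (Tbx18, first wild-type array) to 107.7 units (Wt1, second wild-type array). Tbx18 passed the detection limit on 3 arrays only. The normexp offset also enters the sum with every gene. This sum therefore says little about epicardial RNA, although its groups do not overlap. The fibroblast sum was 12.25 and 12.10 against 12.03 and 11.86, with 4 of 8 genes higher and a median difference of 0.0034. The lower sum in the knockout was therefore not shared by the fibroblast list as a whole. The probe that gave this sum its highest intensity, of the proteoglycan gene Dcn, was at 11.49 and 11.50 against 11.21 and 10.85. That is a difference of -0.47 with an unadjusted limma p of 0.0172. The collagen gene Col3a1 was at 9.01 and 8.11 against 9.02 and 9.07, a difference of 0.49 ± 0.30 with an unadjusted limma p of 0.177. The low second wild-type array carried the Col3a1 difference. The ventricular muscle sum was 17.71 and 17.67 against 17.72 and 17.74, with 5 of 10 genes higher. Its brightest genes, Actc1, Myl2 and Tnnt2 among them, hold rank values shared between arrays, as described for Actc1. The sum therefore gives no direction, although its groups do not overlap. The atrial sum was 11.95 and 11.94 against 12.21 and 12.75, and without Nppa it was 9.39 and 9.55 against 9.40 and 9.36, with groups that overlapped. Gata6 and Hand2 are also expressed by epicardial, smooth muscle or fibroblast cells, and the part of these sums in their differences was not tested.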

How the data were processed

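Cy5-labelled amplified RNA was hybridised by the Toray protocol, per the labels' protocols. Per the file headers, the deposited scanner files hold median pixel intensity at 635 nm, linear, for 27456 spots and for the background around each spot. The headers relate 3 scanner gains by fitted lines, and the rule for combining them is unknown here. A second deposited table gives intensity processed by the authors. Set against the spot medians, each of its columns was a straight line, with 78.4 to 87.7 units subtracted and the rest scaled to a median of 25, and dim cells were empty.

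Spot medians were corrected with normexp (offset 50, all spots) in limma 3.58.1 under R 4.3.3. Local background was not subtracted, since it followed the spot signal (correlation of log2 values 0.931 to 0.967). Log2 values were quantile normalized without control spots. Of 23473 gene probes, 20690 had 1 symbol in the platform annotation and 2783 had none. A probe was kept when above the detection limit on at least 2 arrays, and the brightest kept probe stood for a gene, a choice made for 977 genes. Groups were compared with lmFit and eBayes, two-sided, with Benjamini-Hochberg adjustment over 15955 genes and a threshold of 0.05. The fit had 2 residual and 2.49 prior degrees of freedom. The step was run on simulated arrays with independent normal noise and variances drawn from the fitted prior, which match its own assumptions. That run cannot show whether those assumptions hold for these arrays. An exact permutation of 2 against 2 arrays cannot reach 0.05.

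The members, lists and tests were chosen with earlier results of these data known. Named were all members, 4 genes per list, those of lowest p, and Nppa, Nppb, Myh6, Myh7, Actc1 and Gja5. Alternatives changed the background correction, normalization, values used (the authors' deposited intensity, floored at 2.3), filter, choice of probe, variance model and pairing, or left out 1 array. Those for the 7 listed genes outside the members with an unadjusted p under 0.05 were added after seeing the data.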

Additional observations from a re-analysis of the deposited data

How the results depend on the processing

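Signal over background left Hand1 with no difference under the reported setting. The count of genes past the adjusted threshold stayed at 0 except that it was 1 with local background subtracted (Dnajb4) and 0 to 1 with 1 array left out (Hba-a2 without the second wild-type array), both named after their values were seen. The number of factors with an unadjusted limma p under 0.05, reported as 1, was 2 with local background subtracted and with normexp on the local background (Nkx2-5 and Irx4 in both), 0 with median scaling, 0 in the authors' table and 0 to 2 with 1 array left out. The labels number the samples of each group 1 and 2, and the deviations of same-numbered arrays correlated at 0.097, so the numbers were not taken to pair them. With the replicate block the count was 2 (Gata6 and Hand2), and the block changed no adjusted call. The number of factors without overlap, reported as 4, was 6 with local background subtracted and with normexp on the local background. In both of these settings 38.8% of all genes had none. The number was 3 with median scaling (38.5% of all genes), 5 of 10 without the filter (36.0%) and 2 in the authors' table (28.0%). With 1 array left out it was 6 to 7, where 62.8% to 75.7% of all genes had none.

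Signs turned for Gata4 (0.16), Tbx20 (-0.91) and Hey2 (0.29) with local background subtracted, and for the same genes with normexp on the local background (0.048, -0.49 and 0.039). They also turned for Hey2 with 75th percentile scaling (0.0058), Nkx2-5 in the authors' table (0.011) and Tbx20 with the mean of its probes (-0.0011). With 1 array left out, differences ranged from -0.073 to 0.0089 for Gata4, from -0.15 to 0.061 for Nkx2-5, from -0.0061 to 0.27 for Tbx20, from -0.081 to 0.22 for Irx4 and from -0.079 to 0.0026 for Hey2. The cause was not tested. Gata6, Tbx5, Hand2 and Srf kept their sign under every alternative run, as did the 7 listed genes outside the members, although Myl3 was at 0.0042 with median scaling and at 0.13 to 0.34 with 1 array left out. With 1 array left out, the lone sample of a group is assumed to vary like the other group.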
